A study of Mus musculus with 6 samples.

Results

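The autophagy genes described here are 40 protein-coding genes of the deposited count table, of 22046 protein-coding and 54532 genes in all. They were chosen by symbol: the Atg, Ulk, Wipi, Becn, Map1lc3 and Gabarap families, together with Sqstm1, Optn, Nbr1, Calcoco1, Rb1cc1, Pik3c3, Pik3r4, Uvrag and Vmp1. The rule uses names and no measured value, but it was set with earlier results of these data known. The RNA came from TM3, a mouse line established from testis and labelled as Leydig cells, the cells that make testosterone. There were 3 libraries of overexpression control cells (genotype WT) and 3 of cells overexpressing A20, the ubiquitin-editing enzyme that Tnfaip3 encodes. All cells were grown in the same medium with fetal bovine and horse serum. The construct behind the overexpression and its species are not stated. Nor is it stated that libraries with the same label came from separate cultures, so p-values measure the spread between these libraries, which may be technical. In bulk RNA, fewer cells of a type and less RNA per cell cannot be told apart.

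Autophagy encloses cytoplasm in a double membrane, the autophagosome, and delivers it to the lysosome. The ULK1 kinase complex starts the process, the VPS34 lipid kinase complex around Beclin 1 marks the forming membrane, and ATG9 and ATG2 supply lipid to it. A pair of ubiquitin-like conjugation systems then attach Atg8 proteins, the LC3 and GABARAP families, to the membrane, and cargo receptors such as p62 bind both the cargo and the Atg8 proteins. As background, Beclin 1 is a known substrate of A20's deubiquitinase activity, and autophagy has been linked to cholesterol supply for steroid production in Leydig cells. RNA counts report the abundance of transcripts and not the flux through the pathway.

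Total counts ran from 13841287 to 16917979 per library, so that 3 counts correspond to 0.177 to 0.217 CPM, counts scaled to a common library total. Throughout, values of a group are listed in the order of its replicates 1, 2 and 3. Tnfaip3 had 30.9, 11.9 and 15.2 CPM among the controls and 41.0, 33.7 and 43.6 CPM among the A20-overexpressing libraries. The groups did not overlap; its log2 fold change was 1.08 ± 0.30 (SE, edgeR adjusted p = 0.331) with 6 libraries and 1.51 ± 0.19 (SE, edgeR adjusted p = 0.000256) without control replicate 1. Control replicate 1 stood apart from the other 5 libraries: 8 Leydig markers, Star and Cyp11a1 among them, summed to 2039 CPM there and to 3.97 to 7.86 CPM elsewhere, where 4 or 5 of the 8 had no count. Sertoli markers summed to 225 CPM in it against 9.28 to 31.3 CPM, endothelial markers to 36.7 against 3.05 to 4.85 CPM, peritubular myoid markers to 88.7 against 36.7 to 59.6 CPM, macrophage markers to 4.23 against 19.3 to 38.8 CPM, fibroblast markers to 1545 against 4443 to 7349 CPM, and germ cell markers to 9.58 against 6.06 to 12.2 CPM. Outside the Leydig list, most of a sum in control replicate 1 could come from 1 gene. These were Clu (221 CPM, Sertoli), Cdh5 (35.1 CPM, endothelial), Acta2 (77.6 CPM, myoid), Cd68 (3.71 CPM, macrophage) and Col1a1 (1410 CPM, fibroblast). Against their lists, Egfl7 (endothelial) was at 1.04 CPM against 3.05 to 4.47 CPM, and Des (myoid) at 6.58 against 14.7 to 19.3 CPM. Whether control replicate 1 holds the same cell line as the other libraries was not tested. The part of these differences in the results below was not tested either, and each comparison is therefore given with all 6 libraries and with the 5 that remain without control replicate 1.

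Optn, the gene of the cargo receptor optineurin, was counted in 1 library only. It lies on GRCm38 chromosome 2, 5020642 to 5064051, minus strand (ENSMUSG00000026672). Control replicate 1 held 226 counts, or 14.7 CPM, and each of the other 5 libraries held 0. Set against the level of 3 counts per library, Optn was at least 67.9-fold higher in control replicate 1 than in the 5 others. Of its protein-coding neighbours, Mcm10 had 184 to 468 counts per library, while Ucma, farther on the same side, and Ccdc3 and Camk1d, on the promoter side, had 0 in all 6 libraries, and the antisense gene 4930551O13Rik, which overlaps Optn, had 2 counts in control replicate 1 and 0 elsewhere. Optn did not pass edgeR's filter on low counts, and DESeq2 gave it no p-value. The pattern was noticed after the values were seen and is not particular to Optn, since 1144 protein-coding genes had counts in control replicate 1 and in no other library, 87 of them at least as many as Optn.

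The bases before the transcription start of Optn are shown because the locus gave RNA in 1 library and no counted read in 5. The sequence is from RefSeq (GRCm38.p6), chr2:5064118-5064367, minus strand, read 5′ to 3′, and ends at the base before the RefSeq start. It holds 8 CpG dinucleotides, where the median over all RefSeq promoter windows of this length was 6 and that over the autophagy genes 15. For comparison, stretches of the Atg3 promoter (chr16:45158719-45158778, plus strand) and of the Atg5 promoter (chr10:44268279-44268338, plus strand) are given with the palindrome CACGTG in capitals. CACGTG is the core of the element bound by TFEB, a transcription factor of lysosomal and autophagy genes, and by other factors of the same type.

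Optn: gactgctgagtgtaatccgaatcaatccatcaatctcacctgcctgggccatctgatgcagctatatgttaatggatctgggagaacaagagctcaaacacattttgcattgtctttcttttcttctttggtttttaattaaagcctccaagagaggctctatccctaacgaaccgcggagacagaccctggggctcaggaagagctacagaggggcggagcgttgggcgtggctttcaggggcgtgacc
Atg3: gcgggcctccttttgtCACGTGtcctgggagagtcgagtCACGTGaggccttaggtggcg
Atg5: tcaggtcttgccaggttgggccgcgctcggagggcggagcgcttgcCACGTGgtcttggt

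In the 250 bases before the start, CACGTG, which reads the same on both strands, was found in 3 of 38 promoters of the 33 autophagy genes matched to the RefSeq table by symbol (Atg3, Atg5 and Atg7), beside 6.02% of all promoters. These matches describe letters in the window and are not binding sites.

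No autophagy gene passed the test between A20 overexpression and control. Of the 40 genes, 38 passed the filter on low counts. Optn and Atg4a-ps, a copy of Atg4a named as a pseudogene, with 0 to 8 counts per library, did not. With all 6 libraries, 0 of 38 had an adjusted p under 0.05 in edgeR's quasi-likelihood test, where 0.0150% of the 13350 genes tested did. DESeq2 called 0 of 39 beside 1.03% of the genes it gave an adjusted p, and limma-voom 0 of 38 beside 0.00%. At an unadjusted p under 0.05 edgeR found 0 of 38 beside 10.0% of all genes, DESeq2 0 of 39 beside 6.67% and limma-voom 0 of 38 beside 9.12%. Without control replicate 1, edgeR's adjusted p was under 0.05 for 0 of 38 beside 4.60% of 13658 genes. The unadjusted p was under 0.05 for 4 of 38, Nbr1, Atg12, Atg16l1 and Pik3r4, all with lower fitted values in A20 overexpression, beside 21.6% of all genes in either direction and 11.2% with lower values. DESeq2 called 0 of 39 beside 5.14%, with 3 at an unadjusted p under 0.05 beside 11.9%, and limma-voom 0 of 38 beside 4.69%, with 5 beside 21.9%. DESeq2 was run without the filter on low counts. Its unadjusted shares are over 25861 genes with 6 libraries and 23674 with 5, many more than edgeR tested, so the shares are not directly comparable.

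The fitted changes stayed under 1.5-fold. The log2 fold changes of the 38 genes (A20 overexpression over control) ran from -0.30 to 0.43 with 6 libraries and from -0.44 to 0.41 with 5, so that 0 of 38 reached 1.5-fold in either fit, beside 17.7% and 20.1% of all genes tested. The median size of the change, whatever its sign, was 0.10 over the 38 genes and 0.23 over all genes with 6 libraries, and 0.15 and 0.25 with 5. The 95% interval of the change lay inside 2-fold in both directions for 36 of 38 genes with 6 libraries, beside 59.1% of all genes, and for 38 of 38 with 5 libraries, beside 66.7%. The exceptions with 6 libraries were Ulk4 and Atg9b, chosen for mention after their values were seen. A narrower bound of 1.5-fold held for 16 of 38 with 6 libraries and for 24 of 38 with 5, beside 23.5% and 36.9% of all genes. The signed median was -0.01 over the 38 genes and -0.03 over all genes with 6 libraries, and -0.07 and -0.00 with 5.

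**Figure D1:**
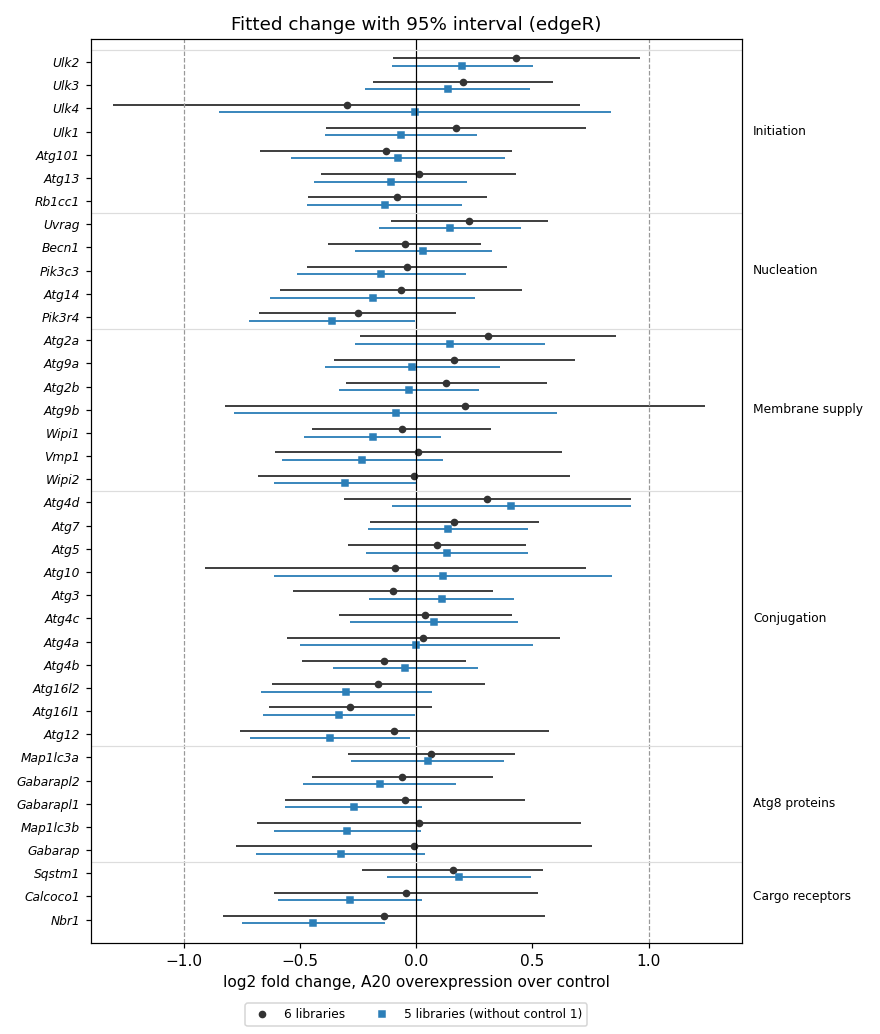
Fitted log2 fold change (A20 overexpression over control, x axis) of 38 autophagy genes, grouped by role, with 95% intervals from edgeR for 6 libraries (black circles) and for 5 libraries without control replicate 1 (blue squares). Dashed lines mark 2-fold; the intervals of 36 genes with 6 libraries and of 38 with 5 stay between them.

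With 6 libraries, the CPM ranges of control and A20 overexpression were separate for 4 of the 38 genes, beside 16.9% of all genes. Ulk2 and Uvrag were higher in each A20-overexpressing library than in each control, beside 7.62% of all genes, and Atg16l1 and Pik3r4 were lower, beside 9.27%. Without control replicate 1 the groups did not overlap for 11 of 38 genes, beside 37.9% of all genes. Atg4c, Sqstm1, Ulk2 and Uvrag were the 4 higher ones, beside 20.7%, and Atg16l1, Gabarapl1, Map1lc3b, Nbr1, Pik3r4, Wipi1 and Wipi2 the 7 lower ones, beside 17.2%. The shares in either direction, 10.5% and 28.9%, were below those of all genes tested, but the 18.4% lower with 5 libraries was not. Some calls changed by the deposited FPKM values, which rest on another library size. With 6 libraries Pik3r4 then overlapped and Sqstm1 did not. For Sqstm1 this was close to a tie, at 224.823 FPKM in A20 overexpression replicate 1 and 224.787 FPKM in control replicate 1. With 5 libraries Atg4c, Map1lc3b and Wipi1 overlapped, while Atg3, Atg16l2 and Calcoco1 did not, the last 2 by narrow gaps. The share of all genes with separate groups by FPKM is not given here.

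Transcript levels were compared between genes by the deposited FPKM values, which divide by gene length. Means over the 6 libraries spanned from 0.427 FPKM for Ulk4 to 231 FPKM for Sqstm1 among the 38 genes tested, with a median of 9.11 FPKM beside 6.34 FPKM over all genes tested. Sqstm1, Gabarap (165 FPKM) and Vmp1 (121 FPKM) were the most abundant, followed by Gabarapl1 (77.2 FPKM), Map1lc3a (48.7 FPKM) and Nbr1 (40.7 FPKM). Genes grouped under the early steps had 0.427 to 15.9 FPKM for initiation and 3.16 to 10.4 FPKM for nucleation. Roles were assigned by gene symbol, and the part of Ulk4 in initiation was not tested. Ulk4 set the lower end of the initiation group, where the next value was 4.93 FPKM for Rb1cc1. Low levels were not particular to these steps, since conjugation genes spanned 2.32 to 33.5 FPKM and membrane supply genes 2.15 to 121 FPKM. The Atg8 genes had 20.2 to 165 FPKM. All autophagy genes together took 0.321%, 0.409% and 0.401% of the counts in the controls and 0.361%, 0.410% and 0.370% in the A20-overexpressing libraries.

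**Figure D2:**
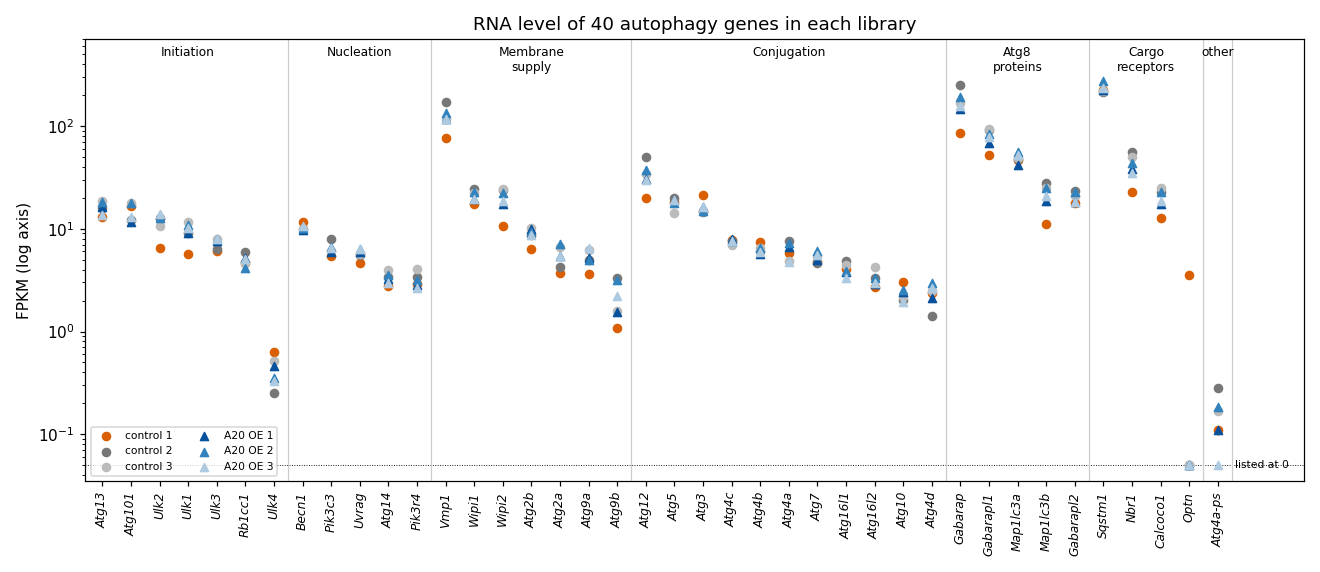
FPKM (y axis, log scale) of the 40 autophagy genes (x axis) in each of the 6 libraries, circles for control and triangles for A20 overexpression, grouped by role. Values listed at 0 sit on the dotted line; Optn has 3.52 FPKM in control replicate 1 and lies on that line in the other 5 libraries.

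In the initiation group, the kinase gene Ulk2 showed the largest fitted change of the 38 genes with 6 libraries. It stood at 42.9, 71.4 and 64.5 CPM in control and at 82.3, 74.6 and 83.1 CPM in A20 overexpression. Each A20-overexpressing library lay above each control, and control replicate 1 was the lowest. Control averaged 59.6 CPM ± 14.9 (SD, n = 3) and A20 overexpression 80.0 CPM ± 4.67 (SD, n = 3), with a log2 fold change of 0.43 ± 0.23 (SE), which did not pass edgeR's test (adjusted p = 0.569). Without control replicate 1 the change was 0.20 ± 0.14 (SE, edgeR adjusted p = 0.451). Ulk2 (ENSMUSG00000004798) lies on chromosome 11, 61775649 to 61855073, minus strand, and was singled out after its values were seen. Atg13, the adaptor of the ULK1 complex and the most abundant initiation gene by FPKM, stood at 63.3, 65.0 and 81.4 CPM in control and at 71.9, 76.7 and 59.1 CPM in A20 overexpression, with overlapping groups and a log2 fold change of 0.01 ± 0.18 (SE). Ulk1, Ulk3, Ulk4, Atg101 and Rb1cc1, the gene of the scaffold FIP200, had log2 fold changes from -0.30 to 0.20. Ulk4 lies at 2.02 to 6.06 CPM and overlaps the more abundant Ctnnb1 on the opposite strand. Strand use in the counting is not given in the sources used here. Without it, reads from the stretch that such a pair shares cannot be told apart, and the length of that stretch was not measured. The same holds for Atg16l2 with Fchsd2, Atg4d with Kri1, Atg9a with Ankzf1, Atg4b with Thap4, Atg2b with Gskip and Map1lc3b with Zcchc14.

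Becn1, the gene of Beclin 1, was the most abundant of the nucleation group. It stood at 91.3, 66.1 and 71.0 CPM in control and at 69.3, 70.5 and 75.3 CPM in A20 overexpression; control replicate 1 was the highest library and the other 5 lay close together. The log2 fold change was -0.05 ± 0.14 (SE, 95% interval -0.38 to 0.28) with 6 libraries and 0.03 ± 0.14 (SE, 95% interval -0.26 to 0.33) without control replicate 1. Pik3r4, the regulatory subunit VPS15 of the VPS34 lipid kinase (ENSMUSG00000032571, chromosome 9, 105642978 to 105687657), stood at 30.9, 30.4 and 39.5 CPM in control and at 27.2, 30.1 and 25.9 CPM in A20 overexpression. By CPM the groups did not overlap, but the gap between them was small beside the height of control replicate 3. By the deposited FPKM values they overlapped, at 2.87, 3.36 and 4.06 in control and 2.81, 3.19 and 2.67 in A20 overexpression. The log2 fold change was -0.25 ± 0.19 (SE, edgeR adjusted p = 0.679) with 6 libraries and -0.36 ± 0.17 (SE, edgeR adjusted p = 0.226) with 5. Uvrag, a Beclin 1 partner (ENSMUSG00000035354, chromosome 7, 98885021 to 99141141), stood at 46.8, 46.8 and 51.9 CPM in control and at 54.2, 55.6 and 57.8 CPM in A20 overexpression. Its log2 fold change was 0.23 ± 0.15 (SE, edgeR adjusted p = 0.634), and 0.15 ± 0.15 (SE) without control replicate 1. Like Ulk2, it was singled out after its values were seen. The catalytic subunit Pik3c3 and the Beclin 1 partner Atg14 had log2 fold changes of -0.04 and -0.07.

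Vmp1, a lipid scramblase of the endoplasmic reticulum, led the membrane supply group. It stood at 329, 618 and 449.6 CPM in control and at 451, 502 and 449.5 CPM in A20 overexpression. The controls spread across a wider range than the A20-overexpressing libraries, at 465 CPM ± 145 (SD, n = 3) against 468 CPM ± 29.8 (SD, n = 3), and their range held all 3 of those libraries. The log2 fold change was 0.01 ± 0.27 (SE). Of the other members, the lipid transfer genes Atg2a and Atg2b, the lipid scramblase genes Atg9a and Atg9b and the phosphoinositide-binding genes Wipi1 and Wipi2 had log2 fold changes from -0.06 to 0.31 with 6 libraries. With 5 libraries 6 of the 7 genes had values below 0, down to -0.31 for Wipi2, beside 24 of all 38 autophagy genes. The median over all genes tested was -0.003. By CPM control replicate 1, left out here, lay below the other 5 libraries for 6 of these 7 genes. The smallest edgeR adjusted p of the 7 was 0.233.

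Among the 11 genes of the conjugation systems, Atg16l1 was the only one with separate groups over all 6 libraries. Its product joins ATG12-ATG5 and places LC3 on the membrane. It stood at 43.9, 43.2 and 42.9 CPM in control and at 36.7, 36.2 and 32.1 CPM in A20 overexpression, so that each A20-overexpressing library lay below each control. The controls were nearly equal in CPM but not in the deposited FPKM values, which were 4.09, 4.80 and 4.43 in control and 3.79, 3.85 and 3.33 in A20 overexpression. Control averaged 43.3 CPM ± 0.511 (SD, n = 3) and A20 overexpression 35.0 CPM ± 2.50 (SD, n = 3). The log2 fold change was -0.28 ± 0.15 (SE, edgeR adjusted p = 0.57) with 6 libraries and -0.33 ± 0.16 (SE, edgeR adjusted p = 0.221) with 5. The gene (ENSMUSG00000026289) lies on chromosome 1, 87755870 to 87792428, plus strand. Atg12, the ubiquitin-like protein and the most abundant of the group by FPKM, stood at 54.9, 116 and 85.8 CPM in control and at 77.0, 89.6 and 73.8 CPM in A20 overexpression. The A20-overexpressing libraries lay inside the range of the controls. Its log2 fold change went from -0.09 ± 0.29 (SE) with 6 libraries to -0.37 ± 0.16 (SE, edgeR adjusted p = 0.197) with 5. The remaining genes, the enzymes Atg3, Atg7 and Atg10, the conjugate Atg5, the proteases Atg4a to Atg4d and Atg16l2, had log2 fold changes from -0.16 to 0.31 with 6 libraries and from -0.30 to 0.41 with 5, and Atg4d held the highest value in both. How reads shared by Atg4a and its copy Atg4a-ps were counted is not given in the sources used here.

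The Atg8 genes, whose products coat the autophagosome, had log2 fold changes from -0.06 to 0.07 for the 5 genes with 6 libraries. Gabarap stood at 173, 427 and 306 CPM in control and at 270, 344 and 290 CPM in A20 overexpression. The controls held both the lowest and the highest library. Control averaged 302 CPM ± 127 (SD, n = 3) and A20 overexpression 301 CPM ± 38.4 (SD, n = 3). Without control replicate 1, 4 of the 5 genes had fitted values below 0, beside 24 of all 38 autophagy genes. The median over all genes tested was -0.003. That control lay below the other 5 libraries by CPM for 3 of the 5 genes. The fitted values were -0.33 ± 0.17 (SE) for Gabarap, -0.30 ± 0.15 (SE) for Map1lc3b, which encodes LC3B, and -0.27 ± 0.14 (SE) for Gabarapl1. The smallest edgeR adjusted p was 0.261. By CPM Map1lc3b and Gabarapl1 did not overlap between the groups in this set of 5, while Map1lc3a and Gabarapl2 had log2 fold changes of 0.05 and -0.16.

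Nbr1, a ubiquitin-binding cargo receptor, had the smallest p of all autophagy genes without control replicate 1. Its levels were 172, 361 and 341 CPM in control and 263, 292 and 240 CPM in A20 overexpression. Control replicates 2 and 3 lay above each A20-overexpressing library, and control replicate 1 lay below each. With 5 libraries control averaged 351 CPM ± 13.9 (SD, n = 2) and A20 overexpression 265 CPM ± 26.0 (SD, n = 3), and the log2 fold change was -0.44 ± 0.15 (SE, unadjusted p = 0.00753, edgeR adjusted p = 0.0896), which did not pass. With 6 libraries it was -0.14 ± 0.30 (SE, edgeR adjusted p = 0.908). Nbr1 (ENSMUSG00000017119) lies on chromosome 11, 101552149 to 101581951, plus strand. Sqstm1, which encodes p62, stood at 841, 664 and 737 CPM in control and at 758, 893 and 791 CPM in A20 overexpression. By CPM its groups overlapped through control replicate 1, and the log2 fold change was 0.16 ± 0.17 (SE) with 6 libraries and 0.18 ± 0.15 (SE, edgeR adjusted p = 0.5) with 5. The receptor gene Calcoco1 had log2 fold changes of -0.04 and -0.29 in the respective fits.

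**Figure D3:**
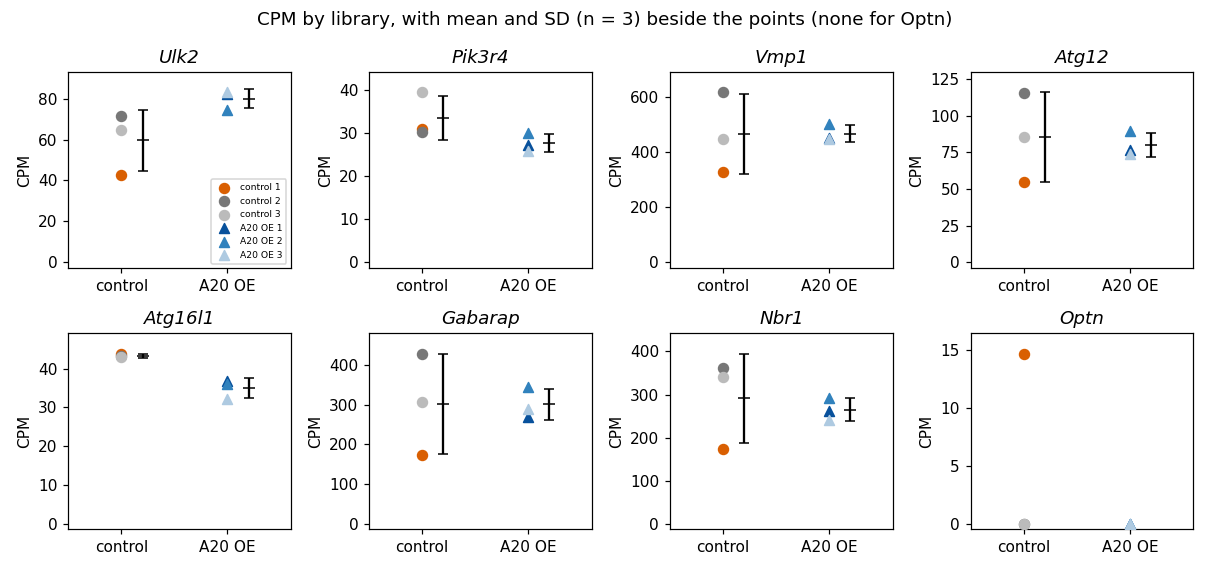
CPM (y axis, from 0) of 8 autophagy genes in the 3 control (circles) and 3 A20-overexpressing libraries (triangles), with the mean and SD (n = 3) beside the points for all but Optn. Control replicate 1, in orange, is the lowest control for Ulk2, Vmp1, Atg12, Gabarap and Nbr1 and the only library with Optn.

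Over the 38 genes the median coefficient of variation of CPM was 19.7% among the 3 controls and 8.81% among the A20-overexpressing libraries, beside 26.8% and 11.5% over all genes. Control replicate 1 lay outside the range of the other 5 libraries for 23 of the 38 genes by CPM, 9 above and 14 below, beside 62.4% of all genes tested, 40.7% above and 21.7% below. With TMM scaling, in which this library's factor is 1.11, it lay above for 5 and below for 22, beside 30.8% and 31.5% of all genes. Nbr1 and Calcoco1, Gabarap, Gabarapl1 and Map1lc3b, Ulk1 and Ulk2, Atg12 and 6 of the 7 membrane supply genes lay below by both scalings. Atg3, Atg4b, Atg10, Becn1 and Ulk4 lay above by both. Atg5, Atg16l1, Atg4c and Atg101 lay above by CPM and within the range by TMM-scaled CPM. The median log2 ratio of control replicate 1 to the mean of the other 5 was -0.12 over the 38 genes and 0.14 over all genes by CPM, and -0.30 and -0.04 with TMM scaling. The extremes by CPM were -0.94 for Atg9b, a gene at 4.76 to 12.3 CPM, and 0.91 for Ulk4.

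**Figure D4:**
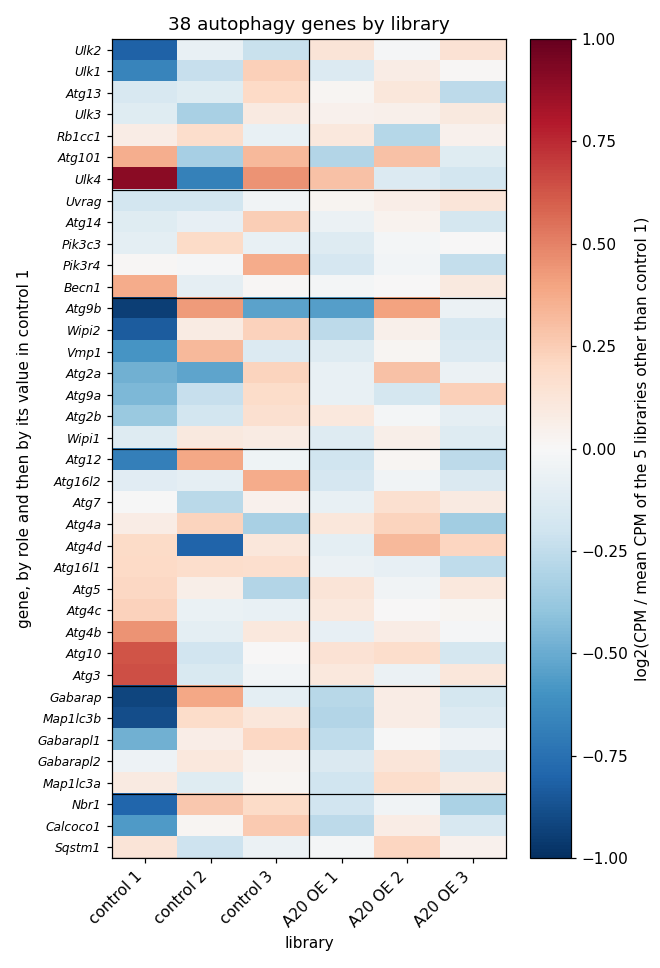
Log2 ratio of CPM in each library (columns) to the mean CPM of the 5 libraries other than control replicate 1, for 38 autophagy genes (rows) ordered by role; blue is lower and red higher, and the scale stops at a log2 ratio of 1 in either direction. Control replicate 1 is blue for Gabarap, Map1lc3b, Nbr1 and Wipi2 and red for Atg3, Atg10 and Ulk4; control replicate 2 is blue for Ulk4 and Atg4d.

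Control replicates 2 and 3 also differed from each other. Control replicate 2 was the highest of the 5 libraries for 11 of the 38 genes and the lowest for 15, beside 21.8% and 37.8% of all genes, and control replicate 3 was the highest for 12 and the lowest for 3, beside 23.3% and 15.9%. With TMM scaling control replicate 2 was the highest for 13 and the lowest for 10, beside 28.3% and 31.1%, and control replicate 3 the highest for 10 and the lowest for 3, beside 19.8% and 19.4%. The choice between these controls decided calls. When control replicate 3 was left out as well, so that control replicate 2 stood alone and the spread came from the A20-overexpressing libraries, edgeR called 5 of 38 genes beside 16.9% of all genes, 1 higher beside 9.00% and 4 lower beside 7.90%. These were Atg12 (log2 fold change -0.61), Gabarap (-0.58), Nbr1 (-0.52), Vmp1 (-0.48) and Atg4d (0.88), with adjusted p from 0.00676 to 0.0208. When control replicate 2 was left out in its place, edgeR called 0 of 38 beside 3.51% of all genes.

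Genes that act around this core were taken from a list of 64 regulators, receptors and fusion factors, of which 59 were tested. With 6 libraries 0 passed edgeR's test, and 4 had an unadjusted p under 0.05, beside 10.0% of all genes. Without control replicate 1, edgeR called 2 higher and 1 lower, beside 1.92% and 2.68% of all genes, and 4.60% in either direction. These calls lay near the share of all genes, and 56 genes did not pass. Of the 59 tested, 13 had an unadjusted p under 0.05, beside 21.6% of all genes. Stx17, the syntaxin that fuses the autophagosome with the lysosome, rose from 9.41 and 11.9 CPM in control replicates 2 and 3 to 20.3, 18.4 and 22.0 CPM, 1.86-fold (log2 fold change 0.89 ± 0.21 (SE), edgeR adjusted p = 0.0218). Control replicate 1 stood at 46.8 CPM, above all of these. Akt1s1, the mTORC1 subunit PRAS40, rose 1.62-fold, from 30.7 and 44.8 CPM to 55.1, 63.4 and 68.0 CPM (edgeR adjusted p = 0.0295), with control replicate 1 at 52.1 CPM, below each A20-overexpressing library. Tsc1, a brake on mTORC1, fell 1.48-fold, from 146 and 161 CPM to 95.9, 111 and 110 CPM (edgeR adjusted p = 0.0261), with control replicate 1 at 79.4 CPM, below them. With 6 libraries the log2 fold changes were -0.08 for Stx17, 0.59 for Akt1s1 and -0.28 for Tsc1. Their edgeR adjusted p values there were 0.968, 0.401 and 0.773. Fits of these genes without control replicate 2 or 3 are not given here. Prkaa2, a catalytic subunit of AMPK, was like Optn: it had 682 counts in control replicate 1 and 0 in each of the others.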

How the data were processed

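The deposited table of raw counts per gene was used as the authors made it. The deposited FPKM values of the authors were used for levels between genes and in alternatives. Per the submitters' processing notes the build was GRCm38 (mm10); aligner, counter and strand setting are not given in the sources used here. CPM divides by the library's total count. Groups were compared with edgeR 4.0.16 in R 4.3.3 (quasi-likelihood F test, TMM factors, default filter by group, robust fit, Benjamini-Hochberg adjustment over all genes kept, threshold 0.05), with 6 libraries and with 5. The SE is the size of the log2 fold change divided by the square root of F, and 95% intervals use it. The alternatives tried were DESeq2 1.42.0, limma 3.58.1 (voom on the counts, and a trend fit to FPKM on a log2 scale with 1 or 0.1 added), other scalings (RLE, library size alone), other filters (none, or 1 CPM in 3 libraries), a replicate block, and each library left out. The procedure was also run on simulated counts, in which no library of a group stood apart from the others. The outcome is not given here, and the power to find changes in these libraries was not tested. Floors of 3 counts cover counting error only.

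The members, lists and the set of 5 libraries were chosen with earlier results of these data known. Values are given for members past the test in either fit, with an unadjusted p under 0.05 with 6 libraries, or under 0.05 with 5 and no overlap, and for the most abundant member of each role by mean FPKM. Ulk2, Uvrag, Optn and others are named outside this rule where said. Promoters came from RefSeq, and 33 of 40 symbols matched.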

Additional observations from a re-analysis of the deposited data

How the results depend on the processing

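The count of 0 autophagy genes past edgeR's test with 6 libraries held under all 15 alternatives run. With 5 libraries it held under 13 of 14 and was 5 without control replicate 3, so leaving out 1 library gave 0 to 5. Over all genes, 2 passed with 6 libraries, against 162 with DESeq2, 23 without a filter, 0 with library size alone, limma-voom, log2(FPKM + 1) or log2(FPKM + 0.1), and 0 to 628 when 1 library was left out. With 5 libraries 628 passed, against 1173 without a filter, 235 with log2(FPKM + 1), 177 with log2(FPKM + 0.1), and 142 to 2423 when 1 library was left out. With a replicate block 0 autophagy genes passed in both sets, beside 2 and 797 of all genes. The labels do not say whether equal replicate numbers pair the libraries. Deviations from the group means correlated at 0.03, 0.11 and -0.04 for equal numbers. Unequal numbers gave -0.19 to 0.16, so these values cannot decide it. For 11 genes followed in both fits, 20 of 319 alternative values had the other sign, and 4 passed the threshold, all without control replicate 3. With 6 libraries these were Gabarap at 0.00 without a filter, 0.10 with limma-voom and 0.11 with either FPKM scale or the replicate block, and Atg13 at -0.02 with library size alone; leaving out 1 library gave -0.33 to 0.40 for Gabarap, -0.11 to 0.14 for Atg13, -0.37 to 0.26 for Atg12, -0.09 to 0.03 for Becn1, -0.44 to 0.11 for Nbr1 and -0.23 to 0.34 for Vmp1. With 5 libraries it gave -0.22 to 0.01 for Atg13 and -0.48 to 0.07 for Vmp1. The cause was not tested. Ulk4, Atg10 and Atg9b had the fewest counts of the tested genes, and Atg4a-ps, with 0 to 8 counts per library, was tested only where no filter was applied or by DESeq2.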
